A study of Bos taurus with 15 samples.

Results

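The TMED genes encode the p24 proteins, a family of small membrane proteins that cycle between the endoplasmic reticulum and the Golgi apparatus. They were chosen by gene symbol from a list of 9 names (TMED1, TMED2, TMED3, TMED4, TMED5, TMED7, TMED8, TMED9 and TMED10), and 8 of the 9 were found among the 24616 genes of the expression table of bovine oocytes described here. TMED2 was not analysed here. The family entered the description because TMED7 had been seen to be lower in vitrified than in fresh oocytes of these same libraries. Differences of the TMED genes between vitrified and fresh oocytes are therefore given below as a description of what the choice rested on, calls included, and support nothing. Tests are read in comparisons among vitrified oocytes, on which that choice did not rest. Earlier results of these data were known when the members were chosen.

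Each p24 protein has a GOLD domain in the lumen, a single membrane span and a short cytosolic tail that binds the COPII coat of vesicles leaving the endoplasmic reticulum and the COPI coat of vesicles returning to it. The proteins fall into alpha (TMED4, TMED9), beta (TMED2), gamma (TMED1, TMED3, TMED5, TMED7) and delta (TMED10) subfamilies, assemble with members of other subfamilies, and in yeast and mammalian cells help to load proteins with a glycosylphosphatidylinositol (GPI) anchor into vesicles. TMED8 carries a GOLD domain but lacks the membrane anchor of the p24 proteins. The oocyte sends its zona pellucida glycoproteins and the GPI-anchored sperm receptor JUNO through this route.

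The study compared 5 groups of 3 libraries each, made from bovine oocytes cultured at 38.5 °C for maturation in vitro over 22 to 24 h and stripped of cumulus cells with hyaluronidase. Oocytes were vitrified (cooled so fast that the solution forms a glass and no ice) in liquid helium with 5.6 M or 6.6 M cryoprotectant, or in liquid nitrogen with 5.6 M or 6.6 M cryoprotectant, and the last group was fresh. The series title calls the oocytes immature, while the sample labels call them matured in vitro. Libraries were made by amplifying cDNA from single cells, per the labels. Nothing in the labels says whether the 3 libraries of a group came from separate animals or pools, so the errors and p-values measure the spread between libraries only.

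Totals ran from 6346848 to 8569618 counts in the 6 helium libraries, from 1790900 to 2613014 in 5 of the 6 nitrogen libraries and from 1601519 to 2822837 in the fresh libraries. The third nitrogen 6.6 M library was as deep as the helium libraries, with 7392972 counts. Depth and coolant therefore cannot be told apart outside that library. All 11 oocyte markers found in the table, of 13 looked for, had counts in all 15 libraries. Helium 6.6 M library 2 and fresh library 2 stood apart, with 9662 and 9743 genes at 1 FPKM or more (fragments per kilobase of gene, scaled to the library total) against 8422 to 9329 in the other 13 libraries. Their summed cumulus and granulosa markers, all 18 of which were in the table, were 631 and 514 CPM (counts relative to the library total) against 338 to 415 CPM elsewhere. The granulosa marker FSHR was at 0 in all 15 libraries, and the 6 blood and immune markers in the table summed to between 0 and 0.934 CPM.

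The 8 genes spanned a wide range of levels, and TMED7 was the most abundant in every library. Levels of different genes are compared in FPKM, which takes each gene's length into account. TMED7 (ENSBTAG00000035030, chromosome 10, 4409118 to 4418520, build UMD3.1), a gamma member, averaged 138 ± 26.3 FPKM (SD, n = 15) and ranked 844th of the 16294 genes with any count. TMED4 (ENSBTAG00000010612, chromosome 4, 77540574 to 77543351), an alpha member, averaged 76.7 ± 20.5 FPKM. TMED9 (ENSBTAG00000001394, chromosome 7, 40475155 to 40479104), the other alpha member, averaged 32.9 ± 20.4 FPKM. These 3 genes held nearly all of the family's signal, and their ranks among the 16294 genes were 844, 1341 and 2441.

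TMED10 (ENSBTAG00000005694, chromosome 10, 86770121 to 86802293), the only delta member, averaged 7.59 ± 1.41 FPKM. TMED3 (ENSBTAG00000000807, chromosome 21, 25993165 to 26004025), a gamma member, averaged 3.56 ± 1.84 FPKM. The remaining 3 genes stayed under 1 FPKM on average, with TMED5 (ENSBTAG00000020180, chromosome 3, 50448643 to 50467156) at 0.649 ± 0.682 FPKM, TMED8 (ENSBTAG00000020469, chromosome 10, 89619638 to 89648224) at 0.593 ± 0.568 FPKM and TMED1 (ENSBTAG00000010968, chromosome 7, 16524145 to 16527426) at 0.442 ± 0.735 FPKM (SD, n = 15 each). No other gene of the table overlapped any of the 8. The nearest neighbour of TMED7 was TICAM2, an adaptor of innate immune signalling, 17297 bases away, with 14 counts over all 15 libraries together.

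**Figure D1:**
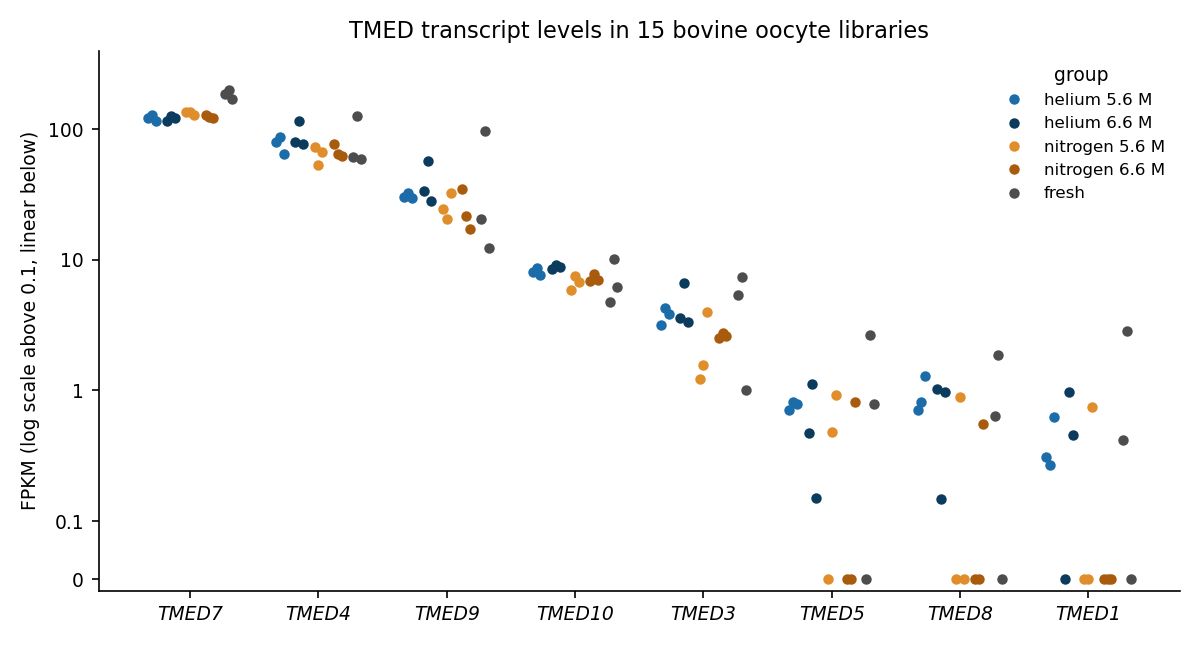
Level of each TMED gene in FPKM, 1 point per library, in order of the mean, coloured by group, on an axis that is logarithmic above 0.1 FPKM and linear below, so that libraries without a count can be drawn at 0. TMED7, TMED4, TMED9, TMED10 and TMED3 follow each other downwards, and TMED5, TMED8 and TMED1 lie together at the bottom.

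The order of the upper 5 genes was nearly the same in each library. TMED7 was above TMED4 in 15 of 15 libraries, by a ratio between 1.10 in helium 6.6 M library 2 and 3.02 in fresh library 1. TMED4 was above TMED9 in 15 of 15 libraries, and TMED9 was above TMED10 in 15 of 15, with ranges over libraries that did not overlap. TMED10 was above TMED3 in 14 of 15 libraries, the exception being fresh library 1. TMED3 was above TMED5 in 15 of 15 libraries. No order could be read among the lowest 3, since TMED5 was above TMED8 in 5 of 15 libraries and TMED8 was above TMED1 in 8 of 15.

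TMED7 was also the main gene of its subfamily. Of the summed FPKM of the gamma members TMED1, TMED3, TMED5 and TMED7, it held between 93.6% and 99.1% in single libraries. TMED4 held between 56.8% and 82.8% of the sum of both alpha members, with both extremes in fresh libraries. Of the sum of all 8 genes, TMED7 held 51.6% in the median library, with 39.9% in helium 6.6 M library 2 as the lowest and 68.3% in fresh library 3 as the highest.

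**Figure D2:**
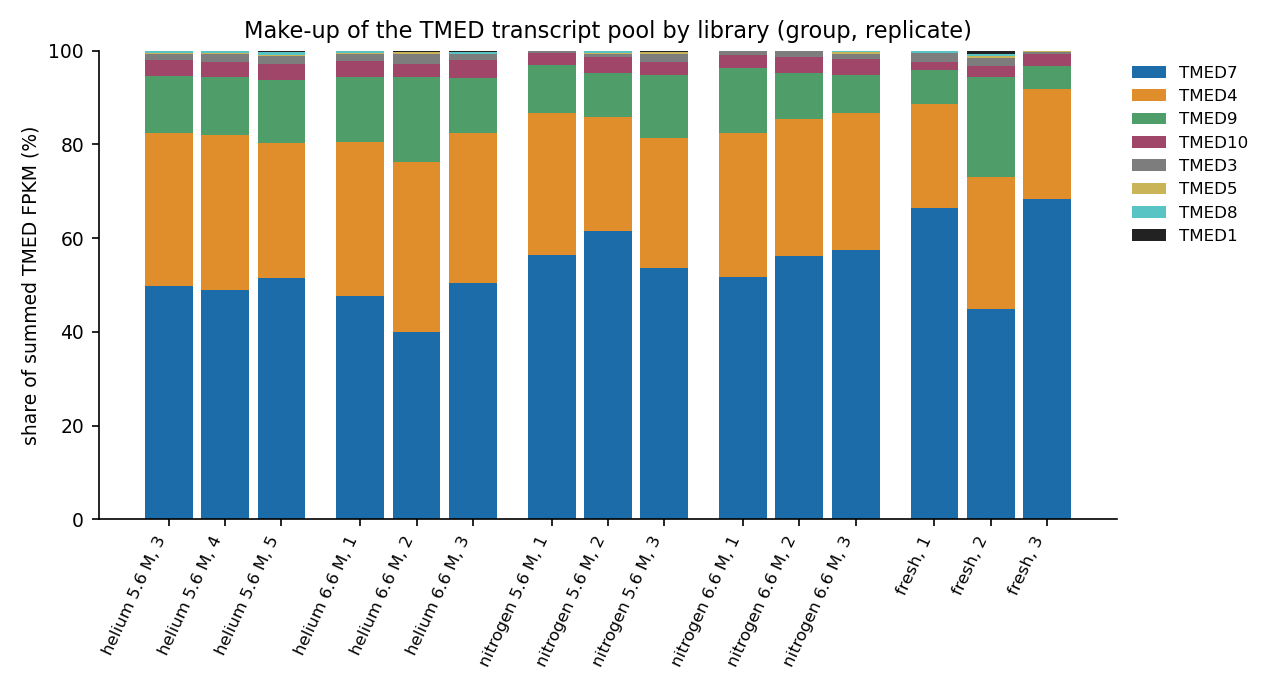
Share of each TMED gene in the summed TMED FPKM of each library, in percent, stacked, with libraries ordered by group. TMED7 is the broadest band in all 15 libraries, and is narrowest in helium 6.6 M library 2 (39.9%) and fresh library 2 (44.8%), where the TMED9 band is broadest.

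TMED7 had the smallest relative spread of the 5 most abundant members within each group, and was lower in all 12 vitrified libraries than in any fresh library. Groups are compared in TMM-scaled CPM, where edgeR's TMM factors correct the library totals for differences in composition. TMED7 had 147, 161 and 154 TMM-scaled CPM in helium 5.6 M oocytes (libraries 3, 4 and 5), and 149.8, 148 and 153 in helium 6.6 M oocytes. In nitrogen it had 173, 189 and 173 TMM-scaled CPM at 5.6 M, and 169.6, 169.5 and 164 at 6.6 M. Fresh oocytes had 256, 215 and 262 TMM-scaled CPM. The highest vitrified library (189) thus lay below the lowest fresh library (215), and the same separation of all 12 from all 3 held for 0.711% of the 8441 genes tested. In FPKM the vitrified libraries also stayed below the fresh ones, at 115 to 135 against 170.4 to 202 FPKM, as they did for 0.652% of tested genes.

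Vitrified oocytes averaged 163 ± 12.7 TMM-scaled CPM of TMED7 (SD, n = 12) and fresh oocytes averaged 244 ± 25.4 (SD, n = 3), a log2 difference of -0.59 (SE 0.12), or 0.664 of the fresh level. Less RNA of a gene per cell and a larger amount of other RNA both lower its share of the counts, and these cannot be told apart. TMED7 rested on 300 to 1358 counts a library, and counting error alone came to 4.06% of the mean over the vitrified libraries, where the observed spread was 7.84%. Within the helium 6.6 M group the spread was 1.42%, below the 3.00% that counting error gives. Against fresh oocytes the log2 difference was -0.67 (SE 0.15) in helium 5.6 M oocytes, -0.70 (SE 0.15) in helium 6.6 M oocytes, -0.45 (SE 0.15) in nitrogen 5.6 M oocytes and -0.54 (SE 0.15) in nitrogen 6.6 M oocytes. These 4 comparisons share the same 3 fresh libraries.

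**Figure D3:**
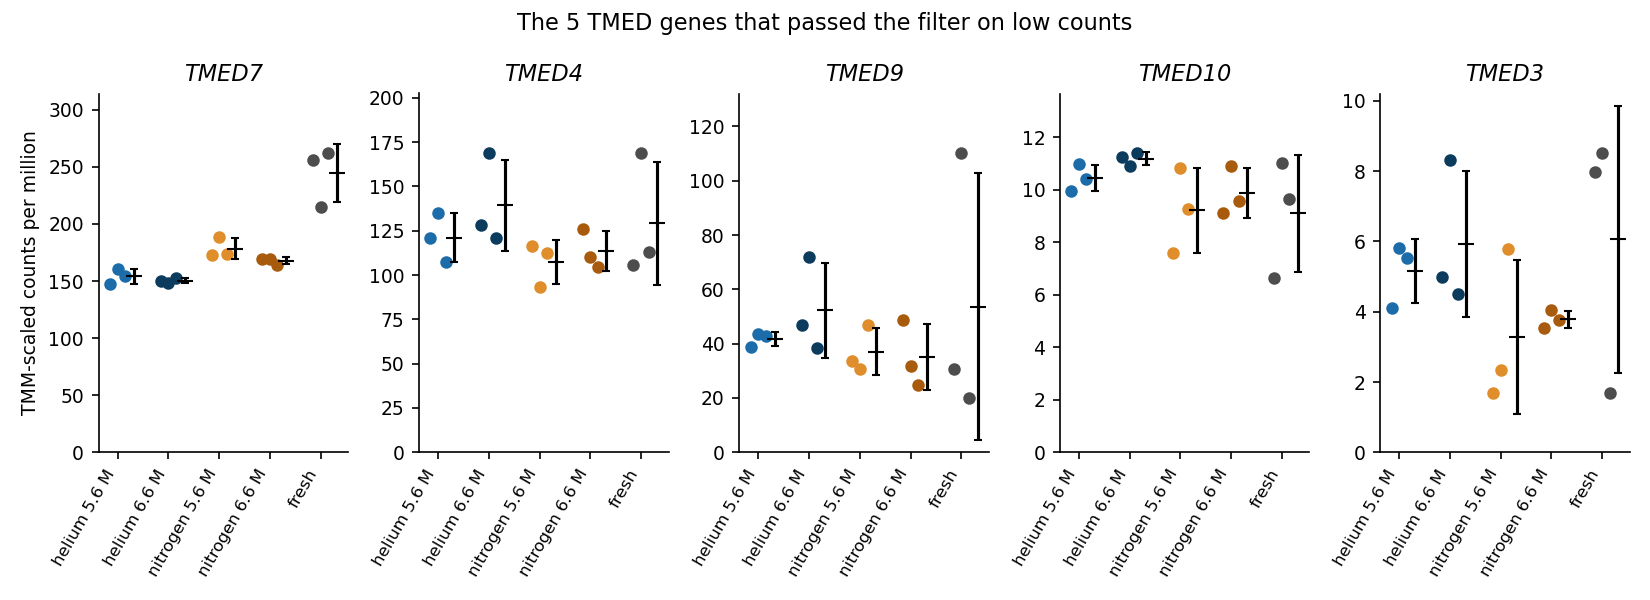
TMM-scaled CPM of TMED7, TMED4, TMED9, TMED10 and TMED3 in each library by group, with group means and SDs (n = 3 each) and axes that start at 0. TMED7 lies between 147 and 189 in the 12 vitrified libraries and between 215 and 262 in the 3 fresh ones, while for TMED9 and TMED4 fresh library 2 stands above the other fresh libraries.

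In the fit across all genes, 5 of the 8 members had enough counts to be tested (TMED3, TMED4, TMED7, TMED9 and TMED10). In the contrast that led to the choice of the family, 1 of the 5, TMED7, was past an adjusted p of 0.05 as lower in vitrified oocytes, as the choice fixes, and nothing is read from that count. Of all genes tested, 0.509% passed in either direction there and 0.237% as lower. The same holds of the single groups, which share the fresh libraries. Of these, TMED7 passed in helium 6.6 M oocytes, where 0.628% of genes passed in either direction and 0.261% as lower, and no member passed in helium 5.6 M (0.474% of genes), nitrogen 5.6 M (0.0118%) or nitrogen 6.6 M oocytes (0.0474%). The pooled call was lost with the replicate number as a block, with a term for depth and with every gene that had a count. It was also lost in 8 of 15 fits that left out 1 library: helium 5.6 M library 3, helium 6.6 M library 3, fresh library 1 or 3, any nitrogen 5.6 M library or nitrogen 6.6 M library 2. The log2 difference itself stayed between -0.69 (without fresh library 2) and -0.52 (without fresh library 1). The helium 6.6 M call was lost in 13 of 15 such fits, all but those without fresh library 2 or nitrogen 6.6 M library 3, and with the replicate number as a block.

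The alpha members TMED4 and TMED9, which in mammalian cells pair with the other subfamilies in cargo transport and in Golgi organisation, were highest in the same 2 libraries, 1 vitrified and 1 fresh. TMED9 had 38.8, 43.7 and 42.8 TMM-scaled CPM in helium 5.6 M oocytes and 46.8, 71.9 and 38.3 in helium 6.6 M oocytes. It had 33.7, 30.6 and 46.8 TMM-scaled CPM in nitrogen 5.6 M oocytes and 48.6, 31.96 and 24.7 in nitrogen 6.6 M oocytes. Fresh oocytes had 30.6, 110 and 20.1 TMM-scaled CPM. The fresh group thus held both the highest and the lowest TMED9 value of the 15 libraries.

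Vitrified oocytes averaged 41.6 ± 12.1 TMM-scaled CPM of TMED9 (SD, n = 12) against 53.6 ± 49.2 in fresh oocytes (SD, n = 3), a log2 difference of -0.40 (SE 0.33). Without fresh library 2 that difference turned to 0.69, and without both that library and helium 6.6 M library 2 it was 0.63. The sign of the TMED9 difference between vitrified and fresh oocytes therefore rested on 1 library. Counting error was 12.5% of the mean in fresh oocytes, where the observed spread was 91.8%.

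TMED4 had 121, 135 and 107 TMM-scaled CPM in helium 5.6 M oocytes and 128, 169 and 121 in helium 6.6 M oocytes. Nitrogen 5.6 M oocytes had 116, 93.2 and 112 TMM-scaled CPM, and nitrogen 6.6 M oocytes had 126, 110 and 104. Fresh oocytes had 106, 169 and 113 TMM-scaled CPM, so that vitrified and fresh libraries overlapped over most of their range. The log2 difference of TMED4 between vitrified and fresh oocytes was -0.11 (SE 0.16), and it was 0.12 without fresh library 2.

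Helium 6.6 M library 2 and fresh library 2 were the 2 highest of all 15 libraries for 5 of the 8 members, TMED1, TMED3, TMED4, TMED5 and TMED9. For TMED7 the helium library ranked 14th and the fresh library 3rd. The same libraries had the highest summed cumulus and granulosa markers in CPM, but through different genes. Marker CPM used library totals without TMM factors, unlike the TMED ranks. Those factors were 1.11 in helium 6.6 M library 2 and 1.21 in fresh library 2, against 0.844 to 1.08 in the other 13. With them, the marker values of these libraries would be lower relative to the other 13. In helium 6.6 M library 2 the cumulus genes TIMP1, TNFAIP6 and VIM stood at 130, 30.8 and 16.8 CPM, against 0, 1.82 and 1.82 CPM in fresh library 2. The steroid transport gene STAR stood at 191 CPM in helium 6.6 M library 2, against 283 CPM in fresh library 2 and at most 198 CPM in the other 13. Not all markers of that list were high, since PTGS2 and CD44 lay within the range of the other 13 in both libraries, and HAS2 was lower in helium 6.6 M library 2 (83.5 CPM) than in the other 13 (92.5 to 126 CPM), with 117 CPM in fresh library 2. Several oocyte markers were high in both as well. NLRP5 stood at 55.0 CPM in helium 6.6 M library 2 and 79.7 CPM in fresh library 2, against at most 40.6 CPM in the other 13. H1FOO, NOBOX and KPNA7 were likewise above the other 13 in both. By contrast, BMP15, ZP2, ZP4 and FIGLA lay within the range of the other 13 in both libraries. GDF9 and OOEP exceeded that range only in helium 6.6 M library 2, and ZAR1 only in fresh library 2. Summed oocyte markers were 9675 CPM in helium 6.6 M library 2 and 9566 CPM in fresh library 2, against 5116 to 9594 CPM in the other 13. The part of the cumulus and oocyte markers in the TMED values was not tested.

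**Figure D4:**
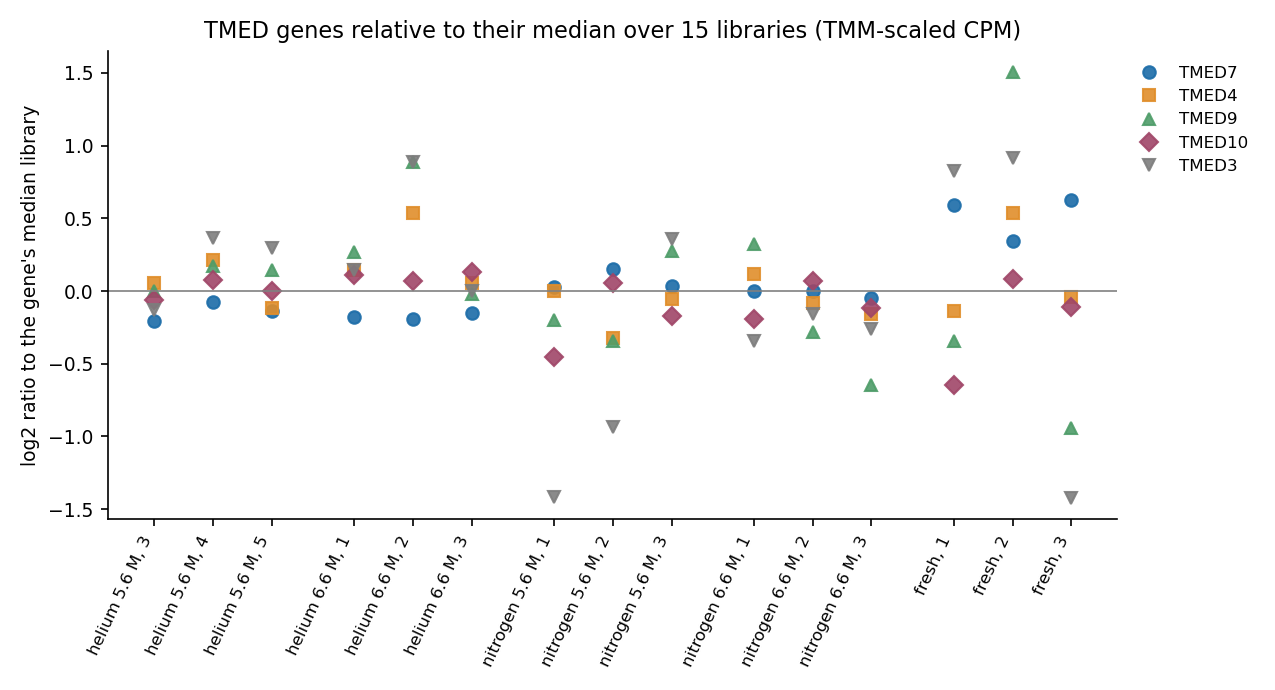
TMM-scaled CPM of the 5 tested TMED genes in each library, as the log2 ratio to the gene's median over the 15 libraries, with libraries ordered by group and 1 marker shape per gene. TMED9, TMED3 and TMED4 are high together in helium 6.6 M library 2 and fresh library 2, while TMED7 lies below its median in all 6 helium libraries and highest in the 3 fresh ones.

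TMED10, which in mammals is the delta partner required for the stability of p24 complexes, varied least after TMED7 over the vitrified libraries, with an SD of 11.03% of its mean. It had 9.96, 10.97 and 10.4 TMM-scaled CPM in helium 5.6 M oocytes and 11.2, 10.9 and 11.4 in helium 6.6 M oocytes. It had 7.59, 10.8 and 9.25 TMM-scaled CPM in nitrogen 5.6 M oocytes and 9.11, 10.9 and 9.59 in nitrogen 6.6 M oocytes. Fresh oocytes had 6.65, 11.01 and 9.65 TMM-scaled CPM, and the vitrified libraries lay within or just above that span. The log2 difference between vitrified and fresh oocytes was 0.14 (SE 0.22), the only one above 0 among the 5 tested members. Its FPKM share of the family was 3.19% ± 0.39 in vitrified oocytes (SD, n = 12) and 2.14% ± 0.40 in fresh oocytes (SD, n = 3). TMED7 is the largest part of the family sum, and its higher level in fresh oocytes led to the choice. The difference in share is therefore no measure of TMED10 itself.

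TMED3, a gamma member like TMED7, was close to the limit of what could be tested, and 11 of 15 libraries reached the minimum of 3.54 CPM that 3 libraries had to meet. It had 4.12, 5.81 and 5.53 TMM-scaled CPM in helium 5.6 M oocytes and 4.98, 8.32 and 4.50 in helium 6.6 M oocytes. It had 1.69, 2.35 and 5.78 TMM-scaled CPM in nitrogen 5.6 M oocytes and 3.54, 4.05 and 3.75 in nitrogen 6.6 M oocytes. Fresh oocytes had 7.98, 8.51 and 1.68, which spanned the whole range of the vitrified libraries. The log2 difference between vitrified and fresh oocytes was -0.41 (SE 0.41) and was -0.02 without fresh library 2.

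The gamma members TMED1 and TMED5 and the anchorless TMED8 were too low for the fit, and are given as counts summed over libraries with exact Poisson intervals at 95%, which cover counting error only. TMED1 had 28 counts in the 6 helium libraries (0.642 CPM, 0.427 to 0.928), 2 counts in the 6 nitrogen libraries (0.109 CPM, 0.0132 to 0.392) and 8 counts in the fresh libraries (1.32 CPM, 0.569 to 2.60). In nitrogen 6.6 M oocytes TMED1 had 0 counts, for which the upper limit was 0.308 CPM. TMED8 had 35 counts in helium (0.802 CPM, 0.559 to 1.12), 6 counts in nitrogen (0.326 CPM, 0.120 to 0.709) and 4 counts in fresh oocytes (0.659 CPM, 0.180 to 1.69). TMED5 had 53 counts in helium (1.22 CPM, 0.910 to 1.59), 16 in nitrogen (0.869 CPM, 0.497 to 1.41) and 12 in fresh oocytes (1.98 CPM, 1.02 to 3.45). All 3 genes lacked a count in several libraries, being detected in 8 (TMED1), 11 (TMED5) and 10 (TMED8) of 15. Most fresh counts came from fresh library 2, with 7 of the 8 for TMED1, 8 of the 12 for TMED5 and 3 of the 4 for TMED8. Helium 6.6 M library 2 gave 10 of the 28 helium counts of TMED1.

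The first comparison that the choice of members did not use was that of coolants, which asks whether colder vitrification in helium leaves other transcript levels than vitrification in nitrogen. In it 0 of 5 members passed the threshold of edgeR's quasi-likelihood test after Benjamini-Hochberg adjustment over the 8441 genes tested, while 0.663% of those genes did. At an unadjusted p under 0.05, 0 of the 5 members and 1349 of all genes passed, and DESeq2 called 0 of the 5. TMED7 averaged 152 ± 4.97 TMM-scaled CPM in helium oocytes and 173 ± 8.38 in nitrogen oocytes (SD, n = 6 each), with a log2 fold change of -0.19 (SE 0.11, 95% interval -0.41 to 0.04, adjusted p = 0.404). All 6 helium libraries (147 to 161) lay below all 6 nitrogen libraries (164 to 189) on this scale, a separation that 2.63% of tested genes shared in that direction. The summed oocyte markers were at 7888 to 9675 CPM in helium and 5884 to 7857 CPM in nitrogen oocytes, the opposite direction to TMED7. Those sums used library totals without TMM factors, so they are not on the scale of the TMED7 separation. Their part in the TMED values was not tested. The deep nitrogen 6.6 M library 3, at 164, was the lowest of the nitrogen libraries and above the highest helium one. In FPKM the coolants overlapped, at 115 to 128 in helium and 123 to 135 in nitrogen, so the separation of TMED7 was seen with the TMM scaling and not in FPKM, where 1.07% of tested genes showed it in that direction. With library totals in place of TMM the log2 fold change of TMED7 was -0.09, and that scaling moved the median of all genes to 0.12, against 0.03 with TMM.

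The other tested members averaged higher in helium than in nitrogen oocytes, none past the threshold. TMED3 averaged 5.54 ± 1.497 TMM-scaled CPM in helium and 3.53 ± 1.43 in nitrogen (SD, n = 6 each), with a log2 fold change of 0.68 (SE 0.34, 95% interval -0.03 to 1.39, edgeR adjusted p = 0.333). TMED4 averaged 130 ± 21.0 in helium and 110 ± 11.1 in nitrogen, with a log2 fold change of 0.24 (SE 0.14, 95% interval -0.06 to 0.54, edgeR adjusted p = 0.420). TMED9 averaged 47.0 ± 12.6 in helium and 36.1 ± 9.53 in nitrogen, with a log2 fold change of 0.39 (SE 0.30, 95% interval -0.23 to 1.02, edgeR adjusted p = 0.528). Without helium 6.6 M library 2 the log2 fold change of TMED9 fell to 0.24. TMED10 averaged 10.8 ± 0.535 in helium and 9.55 ± 1.24 in nitrogen, with a log2 fold change of 0.18 (SE 0.18, 95% interval -0.18 to 0.55, edgeR adjusted p = 0.632). The median over the 5 members was 0.24, against 0.03 over all genes tested. At each cryoprotectant concentration taken alone, 0 of 5 members and 0 of 8441 genes passed, with 803 genes at 5.6 M and 678 at 6.6 M, and no member, at an unadjusted p under 0.05.

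**Figure D5:**
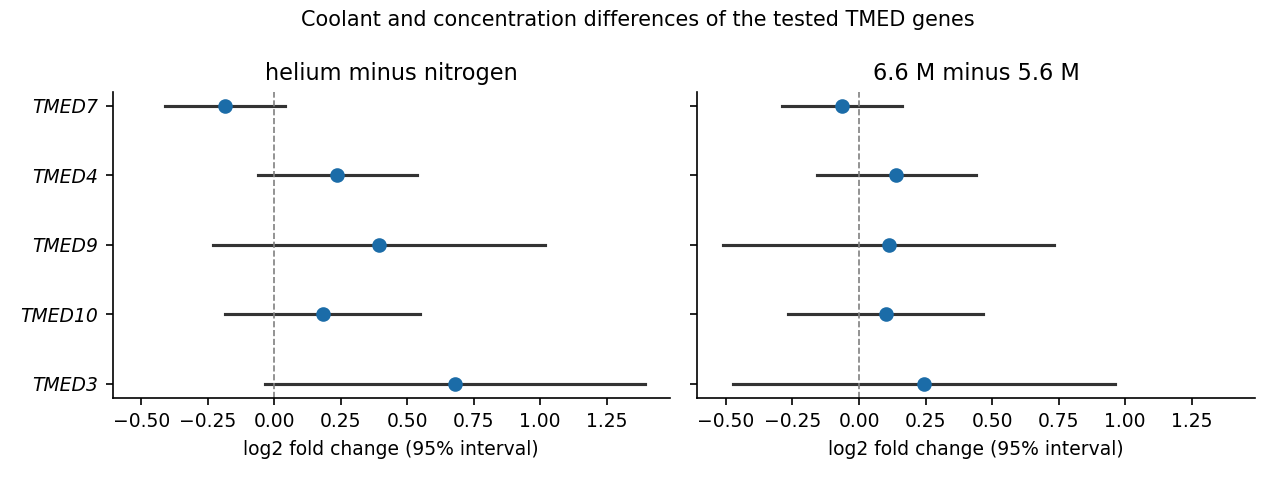
Log2 fold changes of the 5 tested TMED genes with 95% intervals, for helium over nitrogen and for 6.6 M over 5.6 M cryoprotectant, from the edgeR fit across all genes. Every interval includes 0, and TMED3 and TMED9 have the widest.

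The balance within the family was computed from the same values, in FPKM, and is no further evidence for the differences above. TMED7 held 48.0% ± 4.19 of the summed TMED FPKM in helium oocytes and 56.1% ± 3.39 in nitrogen oocytes (SD, n = 6 each), and the highest helium share (51.55%) was next to the lowest nitrogen share (51.64%). The ratio of TMED7 to TMED4 in FPKM averaged 1.49 ± 0.226 in helium oocytes and 1.98 ± 0.287 in nitrogen oocytes, with overlap between 1.68 and 1.79. The ratio of TMED7 to TMED10 was 13.6 to 15.1 in helium oocytes, 15.8 to 23.2 in nitrogen oocytes and 19.9 to 39.2 in fresh oocytes. These ratios do not depend on how library totals are scaled, and they show unequal levels of the genes within a library, not which of the genes changed. TMED10 rested on 64 to 92 counts in helium libraries, 16 to 69 in nitrogen and 10 to 23 in fresh libraries. Counting error in its ratio was thus larger outside helium, and the ratio of 39.2 came from fresh library 1, with 10 counts of TMED10. How many other pairs of genes separated the coolants in this way was not tested.

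The cryoprotectant comparison asks whether 6.6 M leaves other transcript levels than 5.6 M, and 0 of 5 members passed in it. Of all 8441 genes 0 passed either (0%), with 189 at an unadjusted p under 0.05 and 0 by DESeq2. TMED7 averaged 159 ± 9.88 TMM-scaled CPM at 6.6 M and 166 ± 15.1 at 5.6 M (SD, n = 6 each), with a log2 fold change of -0.06 (SE 0.11, 95% interval -0.29 to 0.16, edgeR adjusted p = 1.00). The concentrations overlapped with the coolants pooled and in helium. In nitrogen the 3 libraries at 6.6 M (164 to 169.6) lay below the 3 at 5.6 M (173 to 189) on this scale, as they did for 2.64% of tested genes. In FPKM these groups overlapped, at 123 to 129.9 at 6.6 M and 129.2 to 135 at 5.6 M. TMED4 had a log2 fold change of 0.14 (95% interval -0.16 to 0.44), TMED9 of 0.11 (-0.51 to 0.73), TMED10 of 0.10 (-0.27 to 0.47) and TMED3 of 0.24 (-0.47 to 0.96). The interval was narrowest for TMED7 and widest for TMED3. In helium and in nitrogen taken alone 0 of 5 members passed as well.

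The interaction, which asks whether the step in concentration acts differently in helium and in nitrogen, was past the threshold for 0 of 5 members and 0 of 8441 genes, with 178 genes and no member at an unadjusted p under 0.05. TMED7 had an interaction of 0.05 on the log2 scale (SE 0.22, 95% interval -0.40 to 0.50, edgeR adjusted p = 1.00). The widest was that of TMED3, at -0.06 (SE 0.68).

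The genes whose pattern over the 15 libraries was most like that of TMED7 were taken as the 5 with the highest Pearson correlation in logged TMM-scaled CPM among 7217 genes with a symbol. The 4 described here were MPZL3 (r = 0.896), which encodes a membrane protein of the immunoglobulin family, CCNG1 (0.895), which encodes cyclin G1, EIF4G2 (0.895), a translation factor, and SLC4A7 (0.886), a sodium bicarbonate transporter. Within the 12 vitrified libraries r of these 4 lay between 0.71 and 0.80. All 4 had lower means in vitrified than in fresh oocytes, as ranking by likeness to TMED7 favours, and nothing is read from that. For EIF4G2 the means were 1053 TMM-scaled CPM in vitrified and 1484 in fresh oocytes. The correlations are a description over libraries that share depth and processing, and the genes were ranked on the same values.

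The other genes of the early secretory pathway were taken from lists of coat subunits, cargo receptors and related proteins, put together by function with earlier results of these data known. Of the COPII coat and its regulators 12 of 15 listed genes could be tested, of the COPI coat and the ARF cycle 14 of 17, of other cargo receptors 13 of 17, of GPI anchor attachment and remodelling 4 of 9, of GPI-anchored surface proteins 3 of 5 and of Golgi tethers 4 of 7. In vitrified against fresh oocytes none of these 50 genes passed, where 0.509% of all genes tested did. At so low a share, the lack of a call among them says little about these lists. The median log2 difference was -0.11 for COPII, -0.0078 for COPI, -0.04 for the cargo receptors, 0.00083 for GPI anchor attachment, -0.03 for GPI-anchored proteins and -0.02 for Golgi tethers, against -0.03 over all genes.

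Between coolants 1 gene of these lists passed, PLAUR, which encodes the GPI-anchored urokinase receptor. PLAUR averaged 194 ± 7.66 TMM-scaled CPM in helium 5.6 M oocytes, 256 ± 36.7 in helium 6.6 M oocytes, 155 ± 4.84 in nitrogen 5.6 M oocytes, 144 ± 16.3 in nitrogen 6.6 M oocytes and 211 ± 1.75 in fresh oocytes (SD, n = 3 each). Its log2 fold change of helium over nitrogen was 0.58 (SE 0.11, edgeR adjusted p = 0.0195), in a comparison where 0.663% of all genes tested passed. Since the lists were put together with results known, that call is a description of PLAUR and is no evidence about its list. The call was lost in 11 of the 22 alternatives run, whose adjusted p ran from 4.23e-05 to 0.273. It was lost with the replicate block (adjusted p = 0.273), with a term for depth (adjusted p = 0.201), and without helium 5.6 M library 3 or 4, helium 6.6 M library 1 or 2, any nitrogen 5.6 M library or nitrogen 6.6 M library 2 or 3. None of the other list genes passed between coolants.

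The COPI list had 11 of 14 members above 0 between coolants and a median log2 fold change of 0.22, against 0.03 over all genes tested. The median was 0.05 for COPII (7 of 12 above 0) and 0.10 for the cargo receptors (8 of 13). It was 0.03 for GPI anchor attachment (2 of 4), -0.19 for GPI-anchored proteins (1 of 3) and -0.10 for Golgi tethers (2 of 4). The 2 genes with the highest mean FPKM stand for each list in which no gene passed, with log2 fold changes of helium over nitrogen. For COPI these were ARF4, a GTPase that recruits the coat, at 0.31 (SE 0.17), and the coat subunit COPB1, at -0.13 (SE 0.16). For COPII these were the coat subunit SEC13, at 0.36 (SE 0.14), and TFG, which organises the exit sites, at 0.04 (SE 0.12). Among cargo receptors these were KDELR2, which returns resident proteins to the endoplasmic reticulum, at 0.24 (SE 0.12), and CNIH4, at -0.16 (SE 0.14). For anchor attachment these were PIGU and PIGK, subunits of the transamidase that adds the anchor, at 0.20 (SE 0.17) and -0.26 (SE 0.26). For Golgi tethers these were USO1 and BLZF1, at -0.31 (SE 0.12) and 0.15 (SE 0.21). The lowest edgeR adjusted p among these 10 genes was 0.217, for SEC13. Between cryoprotectant concentrations none of the 50 list genes passed, nor did any other of the 8441 genes tested.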

How the data were processed

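Gene-level expression was measured in 15 RNA-seq libraries. The authors deposited 1 table with a read count and an FPKM value per gene and library, per the file headers. HISAT2 2.0.4, StringTie 1.3.0 and build UMD3.1 are named in the submitters' processing notes. The sources used here do not give the counting program, its strand setting or its treatment of reads that match several genes. The deposited counts, FPKM and library totals implied the same length for a gene in each library, within 0.1% in 180473 of 180473 values. That length was derived from the FPKM values themselves, so its correctness was not checked. Members and gene lists were chosen with earlier results of these data known.

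Deposited counts were tested with edgeR 4.0.16 in R 4.3.3: TMM scaling, a filter of 3.54 CPM in at least 3 libraries, 1 quasi-likelihood fit of the 5 groups, contrasts between group coefficients, and Benjamini-Hochberg adjustment over 8441 genes with a threshold of 0.05. The contrast of all vitrified with fresh oocytes averaged the 4 vitrified groups. Standard errors are the log2 fold change divided by the root of its F statistic. The fit was tested on simulated data. Alternatives were DESeq2 1.42.0, RLE size factors, library totals, no filter beyond 1 count, a replicate block, a depth class (above or below 5000000 counts) and leaving out each library. Leaving out helium 6.6 M library 2 and fresh library 2 together was chosen after seeing the data. All members are named; the likeness rule took the 5 genes most correlated with TMED7, of which 1 is not reported here, and list genes are those past the threshold or, where none was, those highest in FPKM. Same-numbered libraries deviated together (correlation over 0.1 in each of 3 pairs) only between helium 6.6 M and fresh oocytes, at 0.147, 0.306 and 0.227, and the labels do not say what a number marks. No pair of libraries of a group was a copy: chi-square per degree of freedom over genes was 5.52 or more. Counting intervals cover counting error only.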

Additional observations from a re-analysis of the deposited data

Results flagged for a closer look

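TMED9 in helium 6.6 M library 2 stood far above the other 5 helium libraries, at 71.9 TMM-scaled CPM, where the next was 46.8 and the lowest 38.3. It was the only such case among 10 sets of libraries examined for the TMED genes, and chance alone flags about 1 set in 20. That library also had 130 CPM of the cumulus gene TIMP1, against at most 12.9 CPM in the 13 libraries other than it and fresh library 2, and the part of this in the TMED9 value was not tested.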

How the results depend on the processing

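The number of TMED genes past the threshold in vitrified against fresh oocytes (1 as reported) was 0 with every gene that had a count, with the depth class, and with the replicate block, and 0 to 1 when single libraries were left out. For helium 6.6 M against fresh oocytes (1 as reported) it was 0 with library totals, with every gene that had a count, with the depth class and with the replicate block, and 0 to 1 without single libraries. For helium 5.6 M against fresh oocytes (0 as reported) it was 1 with DESeq2 and without helium 6.6 M library 2 and fresh library 2 together, and 0 to 1 without single libraries. For nitrogen 6.6 M against fresh oocytes it was 1 with DESeq2. Among vitrified groups it was 0 under every alternative run. The cause was not tested.

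Of 792 log2 fold changes among vitrified groups under alternatives, 747 kept their sign and call, 11 lost a call, all of PLAUR, and 34 changed sign, none of them called; of 550 against fresh oocytes, 42 changed sign. Without helium 6.6 M library 2 and fresh library 2 together, 6.6 M over 5.6 M was -0.039 for TMED9 and, in helium, -0.11 for TMED3, and the interaction was -0.037 for TMED4 and 0.013 for TMED10. With the replicate block, 6.6 M over 5.6 M was -0.076 for TMED9 and, in helium, 0.045 for TMED7 and -0.010 for TMED9, and the interaction was 0.091 for TMED10. The TMED10 interaction was 0.0051 with RLE factors, 0.023 with library totals and 0.0049 with DESeq2, and with the depth class TMED9 in nitrogen was 0.12. Without single libraries, 6.6 M over 5.6 M ran from -0.038 to 0.22 for TMED9, and in helium from -0.11 to 0.37 for TMED3. In nitrogen it ran from -0.076 to 0.88 for TMED3, from -0.035 to 0.14 for TMED4, from -0.40 to 0.12 for TMED9 and from -0.044 to 0.22 for TMED10. The interaction ran from -0.65 to 0.30 for TMED3, from -0.039 to 0.25 for TMED4 and from -0.11 to 0.16 for TMED10. Genes called between helium and nitrogen numbered 56 as reported, 31 with library totals, 344 with every gene that had a count, 269 with DESeq2, 0 with the replicate block, 13 with the depth class and 217 without both libraries together.

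TMED3 rested on 19 to 133 counts per group. TMED1, TMED5 and TMED8 were below the CPM filter and were fitted only with every gene that had a count, where none passed. Depth moved with coolant except in nitrogen 6.6 M library 3, and with the depth class the log2 fold change of TMED7 for helium over nitrogen was -0.15 (SE 0.22).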

Other observations

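TMED6, a gamma member outside the 9 names, is described in the table without a symbol (ENSBTAG00000007616). It had 278 counts over the 15 libraries and a count in each, with a mean of 4.40 FPKM and a range of 1.89 to 6.52 FPKM, a level next to that of TMED3. Including it would lower the share of TMED7 in the gamma subfamily.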
